A study of Homo sapiens with 6 samples.

Results

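Immune checkpoint ligands are surface or secreted proteins that engage inhibitory receptors on T cells, natural killer cells and macrophages. The genes described are a fixed list of 10: CD274, PDCD1LG2, CD276, VTCN1, PVR, NECTIN2, LGALS9, CD47, TNFRSF14 and HHLA2. The list was set by gene name, with earlier results of these data known. The count table has 21676 genes and a row for 9 of the 10; VTCN1 is not analysed here. Of these 9, 8 passed the filter on low counts and stand among 14629 tested genes, and HHLA2 did not pass it.

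The libraries came from the 83 cell line, which the submitters call a SACC cell, a name that usually stands for salivary adenoid cystic carcinoma. The tested cells carried overexpression of ApoD, a secreted lipocalin that binds small lipids, and the others were labelled control, with 3 libraries in each group. How the gene was introduced, what the control cells received and whether the cells were pooled or 1 clone are not stated in the sources used here. The libraries are not said to come from separate cultures, so the spread behind each p-value may be technical. They held 37542568 to 40416964 counts each. APOD had 528 to 628 counts in the ApoD overexpression libraries and 2 to 9 counts in the controls, in the direction of the labels.

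Epithelial markers were abundant in both groups, with a summed level of 3965 to 4477 counts per 1000000 (CPM) with ApoD overexpression and 3483 to 4558 CPM in controls over 9 markers, of which KRT7 rose and 5 fell. Of 6 markers used for adenoid cystic carcinoma, MYB, MYBL1 and NFIB were detected in every library, and KIT, SOX10 and NTRK3 are not analysed here. Markers of T and natural killer cells summed to 0.0563 to 0.178 CPM with ApoD overexpression and 0.242 to 0.415 CPM in controls over the 4 of 9 that have a row, and the leukocyte marker PTPRC had 0 counts in each ApoD overexpression library and 1, 12 and 0 in the controls. B cell markers, 4 of 5 with a row, summed to at most 0.313 CPM with ApoD overexpression and 0.781 CPM in controls.

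Several ligands act as pairs on shared receptors. PD-L1 (CD274) and PD-L2 (PDCD1LG2) bind PD-1 and lower T cell signalling, and interferon-gamma induces CD274 through JAK kinases and IRF1. PVR and NECTIN2 are nectin family adhesion proteins that bind the inhibitory receptor TIGIT and the activating receptor CD226. CD276 (B7-H3), VTCN1 (B7-H4) and HHLA2 (B7-H7) belong to the B7 family with the PD-1 ligands. Galectin-9 (LGALS9) is a lectin that binds TIM-3, CD47 is the signal that holds back phagocytosis through SIRPA, and TNFRSF14 (HVEM) engages BTLA and CD160 as well as its activating partner LIGHT.

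With ApoD overexpression the ligand transcripts moved in opposite directions. CD276 and PVR rose, to 1.79 and 1.97 times the control level, and LGALS9 and TNFRSF14 fell, to 0.195 and 0.563 of the control level. CD274, PDCD1LG2, NECTIN2 and CD47 did not pass the test. That is 4 of 8 tested members at an adjusted p under 0.05 in the quasi-likelihood F test of edgeR, where 48.8% of all tested genes were called. The median log2 fold change was 0.29 over the 8 members and −0.02 over all tested genes. The share called is close to that of all genes, so what follows describes each ligand and reads nothing from their number. In bulk RNA, fewer cells of a kind and less RNA per cell cannot be told apart.

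Promoter sequence is shown for the ligand with the largest called fall, the ligand with the largest called rise, and CD274, whose control by interferon is well known. Each runs 5′ to 3′ from 250 bases before the RefSeq transcription start to the start base, in build GRCh38.p14. Capitals mark letters searched on both strands: GAAANNGAAA for an interferon-stimulated response element (in LGALS9 and CD274), TTCNNNGAA for a gamma-activated site (in CD274), and GGAATG for TEAD factors (in PVR). Letters for NF-kB and AP-1 were searched as well and are not capitalised.
LGALS9 promoter, chr17:27630938-27631188, plus strand: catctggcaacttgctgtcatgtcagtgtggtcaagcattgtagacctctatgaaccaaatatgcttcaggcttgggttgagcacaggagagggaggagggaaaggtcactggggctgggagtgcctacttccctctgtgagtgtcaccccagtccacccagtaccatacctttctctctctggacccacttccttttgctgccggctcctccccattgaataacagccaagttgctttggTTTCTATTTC
PVR promoter, chr19:44643660-44643910, plus strand: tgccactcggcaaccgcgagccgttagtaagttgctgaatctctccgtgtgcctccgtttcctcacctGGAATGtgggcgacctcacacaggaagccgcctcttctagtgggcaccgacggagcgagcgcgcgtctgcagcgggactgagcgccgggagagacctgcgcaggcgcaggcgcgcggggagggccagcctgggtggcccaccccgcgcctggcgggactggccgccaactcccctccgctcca
CD274 promoter, chr9:5450292-5450542, plus strand: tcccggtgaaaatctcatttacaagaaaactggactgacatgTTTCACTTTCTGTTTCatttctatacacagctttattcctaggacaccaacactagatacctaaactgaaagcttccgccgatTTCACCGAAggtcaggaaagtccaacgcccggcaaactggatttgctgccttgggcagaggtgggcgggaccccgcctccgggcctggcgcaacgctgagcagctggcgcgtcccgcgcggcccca
The letters GAAANNGAAA were found in promoters of 2 of the 9 members that the RefSeq table holds, CD274 and LGALS9, and in 3.04% of 35116 promoters of the same length. The 9 members have 12 promoters, and a member is counted if any of its promoters matches. The percentages count single promoters, so the 2 are not on the same unit. In LGALS9 the match TTTCTATTTC ends on the start base itself, at positions −9 to 0. In CD274 the matches TTTCACTTTC and TTTCTGTTTC overlap, at −208 to −199 and −202 to −193, and the gamma-activated letters lie apart from them at −125 to −117. The gamma-activated letters were in 6.58% of all promoters and in no other member. GGAATG was in 11.9% of all promoters and, among the members, in PVR and TNFRSF14, which moved in opposite directions. The loose NF-kB letters GGGNNNNNCC were in 54.5% of all promoters and in 8 of the 9 members, LGALS9, PVR and CD274 among them, and the AP-1 letters TGANTCA were in 6.73% of all promoters and, among the members, in HHLA2. A match is a run of letters and does not show that a factor binds there.

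**Figure D1:**
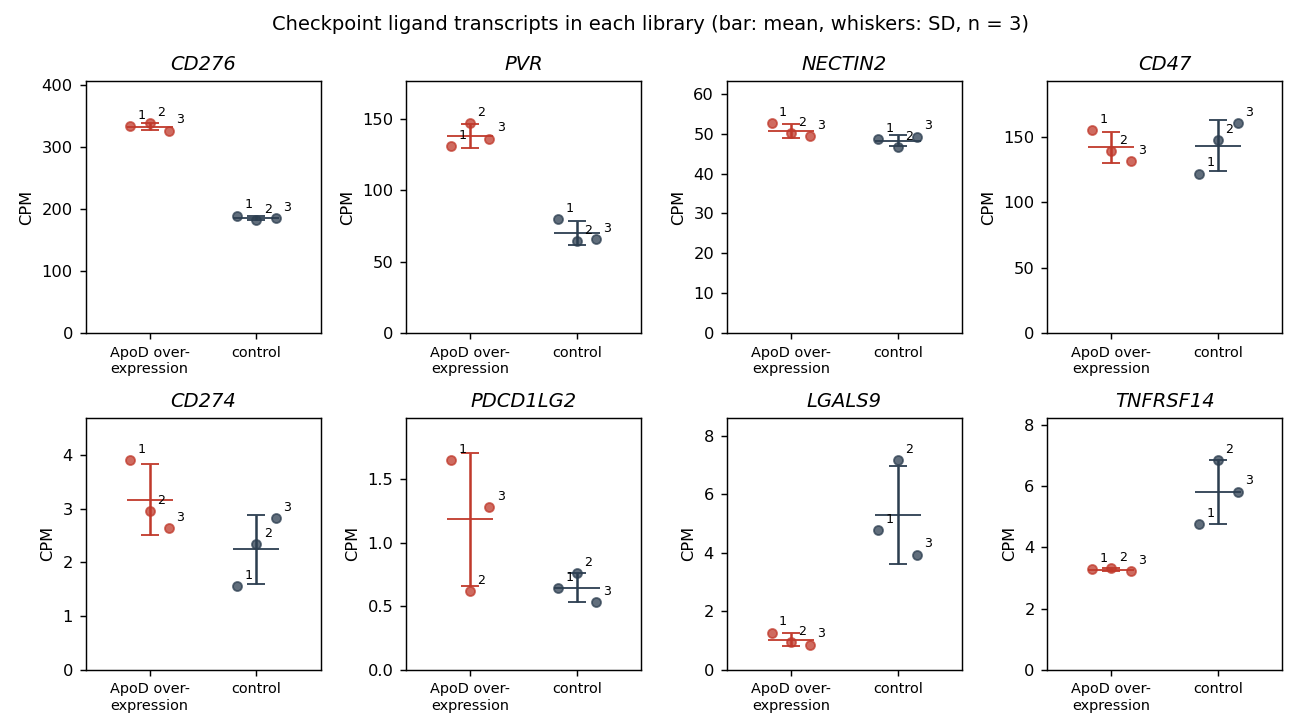
Level of the 8 tested checkpoint ligands in CPM (vertical axes, linear, from 0) in each library of both groups, with the replicate number beside each point; bars are means and whiskers SD (n = 3). CD276 and PVR lie higher and LGALS9 and TNFRSF14 lower in all 3 ApoD overexpression libraries than in any control, and CD274, PDCD1LG2 and CD47 overlap.

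CD276 is a B7 family protein that lowers T cell responses and is abundant on many carcinomas. It had 333, 338 and 326 CPM in the ApoD overexpression libraries, against 189, 182 and 185 CPM in the controls. The groups were far apart and each was tight, with a coefficient of variation of 1.84% with ApoD overexpression and 1.92% in controls. Its log2 fold change was 0.84 ± 0.08 (SE; adjusted p = 1.09e-05 by edgeR), or 1.79-fold with a 95% interval of 1.59 to 2.03. Counts of 7453 to 13102 per library left little counting error. The rise held past the threshold in all 16 alternative fits, between 0.64 and 0.87 on the log2 scale. CD276 was also the most abundant ligand per length. Its level of 84.0 ± 1.53 FPKM (SD, n = 3) with ApoD overexpression lay above 94.8% of tested genes, and its level of 50.8 ± 1.15 FPKM in controls above 91.6%. FPKM is the count per kilobase of gene and per 1000000 counts of the library.

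PVR, also called CD155 and the poliovirus receptor, is the high-affinity ligand of TIGIT. It had 131, 147 and 136 CPM with ApoD overexpression, against 80.0, 64.6 and 66.0 CPM in the controls. All 3 ApoD overexpression libraries were above all controls, and control replicate 1 was the highest of its group. On the log2 scale the change was 0.98 ± 0.10 (SE; adjusted p = 2.05e-05 by edgeR), or 1.97-fold with a 95% interval of 1.68 to 2.30. It too passed in all 16 alternative fits, between 0.81 and 1.09. The gene overlaps CEACAM19 on the same strand in GENCODE release 29. CEACAM19 had 189 counts in all with ApoD overexpression and 200 in controls. PVR had 15602 in all with ApoD overexpression and 8606 in controls. How reads in the shared stretch were assigned is not stated, and their part in the rise was not tested.

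NECTIN2, also called CD112, shares TIGIT and CD226 with PVR and is the ligand of PVRIG. It had 52.7, 50.2 and 49.3 CPM with ApoD overexpression, against 48.7, 46.7 and 49.3 CPM in the controls. The lowest ApoD overexpression library and the highest control were nearly equal. The log2 fold change was 0.07 ± 0.09 (SE; adjusted p = 0.523 by edgeR) with TMM scaling, and −0.044 when libraries were scaled by their totals. The 95% interval ran from a fold of 0.920 to 1.20, so a change as large as that of PVR lay outside it.

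The PVR pair therefore shifted in composition within each library, whatever the scaling. Per length, the ratio of PVR to NECTIN2 was 1.41, 1.67 and 1.57 with ApoD overexpression, against 0.935, 0.787 and 0.762 in controls. PVR was the more abundant of the pair in every ApoD overexpression library and NECTIN2 in every control. With 3 libraries against 3, an exact permutation test (two-sided) cannot go below p = 0.1, which it gave. This was 1 of 3 ratios examined.

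CD47 had 155, 139 and 132 CPM with ApoD overexpression, against 122, 147 and 161 CPM in the controls. The groups overlapped fully, and control replicate 1 was the lowest library of all 6. CD47 had a log2 fold change of −0.01 ± 0.11 (SE; adjusted p = 0.933 by edgeR), with a 95% interval of 0.837 to 1.17 for the fold. Counts of 4917 to 6648 per library mean that counting error was small beside the spread between libraries, which was 8.36% with ApoD overexpression and 13.7% in controls. The ratio of CD276 to CD47 per length was 5.74, 6.49 and 6.62 with ApoD overexpression, against 4.14, 3.30 and 3.08 in controls, with no overlap (exact permutation p = 0.1, two-sided, the smallest possible).

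**Figure D2:**
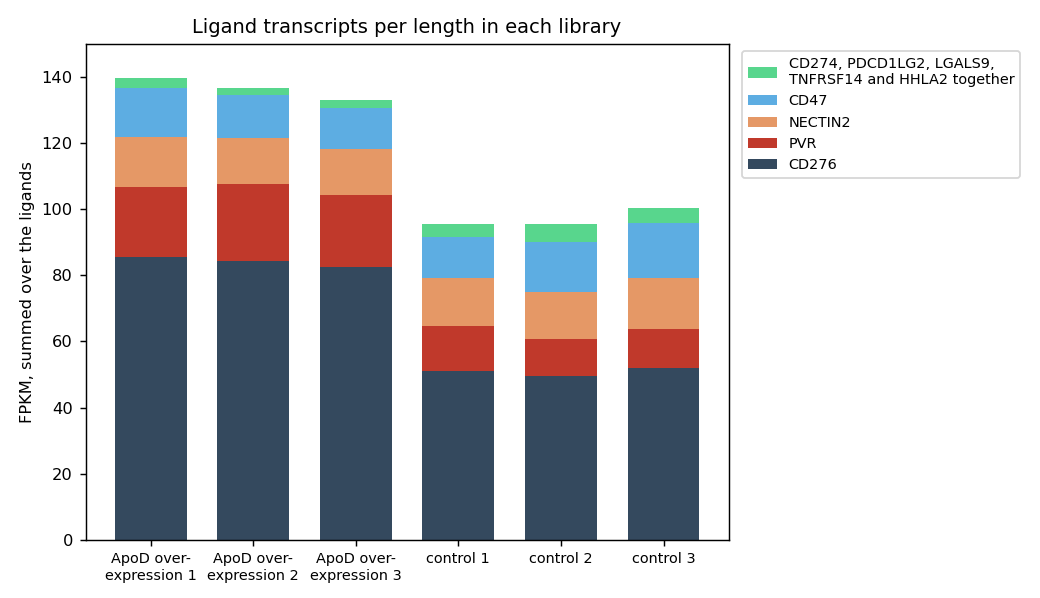
FPKM of the checkpoint ligands stacked for each library (vertical axis, linear, from 0), with CD274, PDCD1LG2, LGALS9, TNFRSF14 and HHLA2 drawn together as the top segment. The stack reaches 133 to 140 FPKM in the ApoD overexpression libraries and 95.4 to 100.4 FPKM in the controls, and CD276 is the largest segment in each.

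Summed over the 9 measured ligands, the level was 137 ± 3.39 FPKM with ApoD overexpression and 97.2 ± 2.81 FPKM in controls (SD, n = 3 each). CD276 alone made up 61.6% ± 0.423 of that sum with ApoD overexpression and 52.3% ± 0.947 in controls. PVR made up 16.2% ± 0.891 with ApoD overexpression and 12.6% ± 1.52 in controls. The shares of NECTIN2 and CD47 were smaller with ApoD overexpression, at 10.5% ± 0.293 and 9.83% ± 0.706, against 15.2% ± 0.299 and 15.1% ± 2.02 in controls. The PD-1 ligands were a minor part throughout: CD274 held 0.593% ± 0.117 with ApoD overexpression and 0.641% ± 0.179 in controls, and PDCD1LG2 held 0.330% ± 0.146 with ApoD overexpression and 0.273% ± 0.0503 in controls. In controls, the levels of NECTIN2, 14.7 ± 0.628 FPKM, CD47, 14.7 ± 2.30 FPKM, and PVR, 12.2 ± 1.31 FPKM, lay within 3 FPKM of each other. With ApoD overexpression PVR, at 22.1 ± 1.004 FPKM, stood apart from NECTIN2, at 14.3 ± 0.665 FPKM, and CD47, at 13.4 ± 1.28 FPKM.

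CD274 had 154, 105 and 101 counts with ApoD overexpression, against 63, 96 and 117 counts in the controls. These were 3.91, 2.96 and 2.64 CPM with ApoD overexpression, against 1.56, 2.34 and 2.83 CPM in controls. The lowest ApoD overexpression library was below the highest control. The log2 fold change was 0.50 ± 0.28 (SE; adjusted p = 0.163 by edgeR), with a 95% interval of 0.923 to 2.16 for the fold, which holds no change as well as a doubling. The counts were low, with a counting error of 9.13% per library with ApoD overexpression and 10.4% in controls. The spread between libraries was larger, 20.9% with ApoD overexpression and 28.4% in controls. At 0.812 ± 0.180 FPKM (SD, n = 3) CD274 lay above 24.9% of tested genes with ApoD overexpression, and at 0.625 ± 0.189 FPKM above 17.6% in controls.

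PDCD1LG2, its neighbour on chromosome 9, had 65, 22 and 49 counts with ApoD overexpression, against 26, 31 and 22 counts in the controls. ApoD overexpression replicates 1 and 3 were above every control, and replicate 2 had as few counts as the lowest control. The log2 fold change was 0.88 ± 0.44 (SE; adjusted p = 0.121 by edgeR), with a 95% interval of 0.940 to 3.59 for the fold. Without ApoD overexpression replicate 2 it was 1.17 and passed (edgeR adjusted p = 0.0395). The ratio of PDCD1LG2 to CD274 per length overlapped between groups, at 0.626, 0.311 and 0.720 with ApoD overexpression and 0.612, 0.479 and 0.279 in controls (exact permutation p = 0.5, two-sided).

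Whether CD274 and PDCD1LG2 passed differed with how a shift across abundance was handled. For PDCD1LG2 it also differed with ApoD overexpression replicate 2 left out, as given above. Genes with a mean count under 100 took 0.237% to 0.262% of the counts in the ApoD overexpression libraries and 0.374% to 0.446% in the controls. With each library's abundance trend removed, the log2 fold changes of CD274 and PDCD1LG2 were 0.92 and 1.46 and both passed (edgeR adjusted p = 0.0138 and 0.0154). Under that setting CD276 and PVR had 0.64 and 0.82 and also passed, so that 4 of the 8 tested members were higher and 1 lower. Of all 14629 tested genes, 3238 were higher and 3379 lower under that setting.

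**Figure D3:**
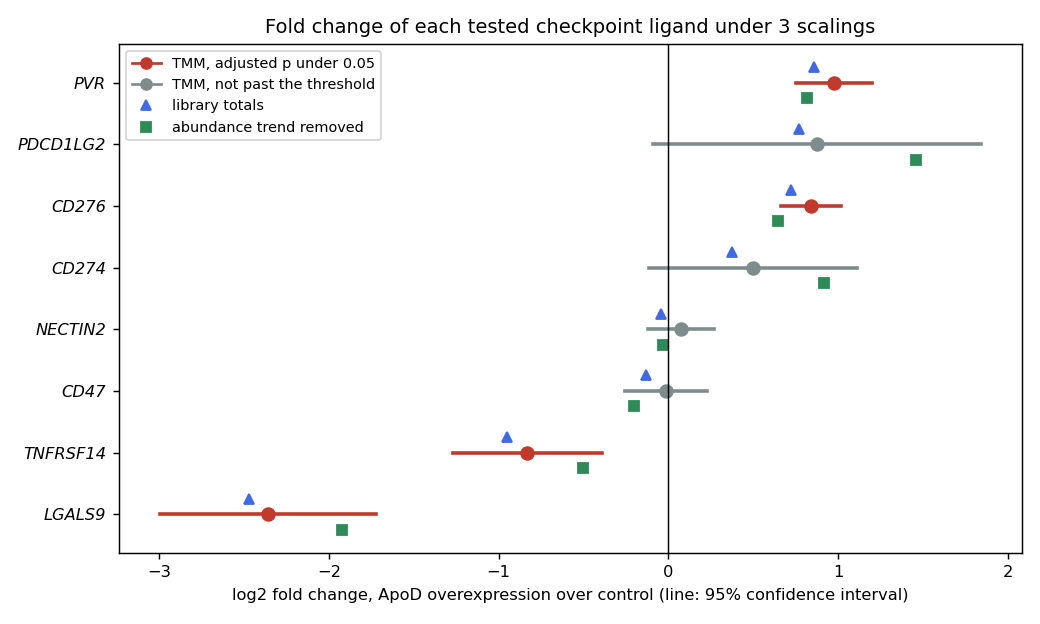
Log2 fold change of ApoD overexpression over control (horizontal axis) for the 8 tested ligands, with circles and 95% confidence intervals from TMM scaling, triangles from library totals and squares with the abundance trend removed. PVR and CD276 stay right of 0 and LGALS9 and TNFRSF14 left of 0 under all 3 scalings, while CD274 and PDCD1LG2 move right when the trend is removed.

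LGALS9 showed the largest change of any member. Galectin-9 binds sugar chains on TIM-3 and other surface proteins. It had 50, 34 and 33 counts with ApoD overexpression, against 193, 294 and 163 counts in the controls. The levels were 1.27, 0.957 and 0.861 CPM with ApoD overexpression, against 4.78, 7.18 and 3.94 CPM in controls, and the groups were well separated although the controls spread by 31.7%. The log2 fold change was −2.36 ± 0.29 (SE; adjusted p = 5.78e-05 by edgeR), which is 5.13-fold lower with a 95% interval of 3.30 to 7.98. Only 3.33% of tested genes had a larger change in either direction. LGALS9 passed in all 17 alternative fits, with log2 fold changes of −2.52 to −1.04, the smallest of them on the log2(FPKM + 1) scale, which shrinks low genes. The filtered FPKM fits kept genes with at least 1 FPKM in 3 libraries, which LGALS9 reached only in the controls. Those fits therefore add no separate support for its fall.

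Its reads can be shared with LGALS9B and LGALS9C, near-identical copies, so the split between them is uncertain. LGALS9B had 1, 4 and 8 counts with ApoD overexpression, against 24, 33 and 34 in controls, and LGALS9C had 7, 14 and 0 with ApoD overexpression, against 3, 19 and 37 in controls. With all 3 summed as 1 gene, an alternative chosen after seeing the data, the log2 fold change was −2.28 ± 0.25 (SE; adjusted p = 2.78e-05 by edgeR). TIM-3 itself, HAVCR2, had 0, 4 and 3 counts with ApoD overexpression and 1, 5 and 9 in controls and was not tested.

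TNFRSF14, a TNF receptor family member that acts on T cells both as a ligand of BTLA and as a receptor of LIGHT, had 129, 118 and 123 counts with ApoD overexpression, against 192, 281 and 241 counts in the controls. These were 3.28, 3.32 and 3.21 CPM with ApoD overexpression, against 4.76, 6.86 and 5.82 CPM in controls. The ApoD overexpression libraries were almost equal, all below the lowest control, which was replicate 1. TNFRSF14 had a log2 fold change of −0.83 ± 0.20 (SE; adjusted p = 0.00479 by edgeR), or 1.78-fold lower with a 95% interval of 1.31 to 2.41. The call was lost with the abundance trend removed (log2 fold change −0.50; adjusted p = 0.0519 by edgeR) and in a test against a 1.5-fold change (adjusted p = 0.200, glmTreat of edgeR). An antisense gene, TNFRSF14-AS1, overlaps it and had 7 counts in all with ApoD overexpression and 24 in controls.

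Endothelial, fibroblast and some epithelial markers also moved in the direction of these falls. Among all tested genes 24.6% were lower and 24.2% higher. Endothelial markers, 3 of 4 with a row, summed to 1.35 to 2.30 CPM with ApoD overexpression and 8.01 to 13.3 CPM in controls, and all 3 fell, where CDH5 had 1, 0 and 0 counts with ApoD overexpression and 86, 51 and 20 in controls. Fibroblast markers, 6 of 7 with a row, summed to 9.85 to 13.8 CPM with ApoD overexpression and 26.9 to 32.6 CPM in controls; COL1A1 and COL3A1 fell, and COL1A2, DCN and LUM had at most 3 counts over all libraries. Of the 9 epithelial markers EPCAM, CDH1, KRT14, KRT17 and KRT19 fell, KRT7 rose, and KRT5, KRT8 and KRT18 did not pass. CDH1 had 1377, 999 and 1168 counts with ApoD overexpression and 3303, 3234 and 2795 in controls. KRT19 had 44, 36 and 17 with ApoD overexpression and 204, 249 and 128 in controls. Myeloid markers overlapped between groups and none was called: 6 of 8 have a row, and they summed to 4.22 to 4.52 CPM with ApoD overexpression and 4.37 to 7.13 CPM in controls, mostly CSF1R, with LYZ at 0 counts with ApoD overexpression and 2 in controls. Sums of T and natural killer cell markers and of B cell markers, given above, were also lower without overlap. Only CD22 of those markers passed the low-count filter, and it was not called. CDH5 and COL3A1 met that filter only through the controls. What part any of these cell markers had in the falls of LGALS9 and TNFRSF14 was not tested.

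HHLA2 had 0 counts in the ApoD overexpression libraries, 0 of 117898124 in all, which allows a level of up to 0.0254 CPM. In controls it had 1 count, in replicate 2. It was not detectable at this depth in either group beyond that count, and no fold is given. This limit covers counting error only.

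The receptors were looked for because a ligand on a carcinoma cell acts on another cell. The list of 17 held receptors, co-receptors and the TNF family ligands TNFSF14 and LTA. Of these 13 have a row, and 10 of those failed the low-count filter. PDCD1 had 0, 0 and 1 counts with ApoD overexpression and 0, 4 and 4 in controls. TIGIT had no count with ApoD overexpression and 0, 4 and 0 in controls, and BTLA had 1 count in each group. The others were SIRPA, TNFSF14 and CD226. SIRPA, the receptor of CD47, rose to 17.6 ± 0.853 CPM with ApoD overexpression, against 12.0 ± 1.35 CPM in controls (SD, n = 3; log2 fold change 0.56 ± 0.13 SE; adjusted p = 0.00340 by edgeR). LIGHT (TNFSF14), the activating partner of TNFRSF14, was present beside it at 2.64 ± 0.243 CPM with ApoD overexpression and 2.46 ± 0.488 CPM in controls, and did not pass (edgeR adjusted p = 0.756). CD226, the activating receptor of PVR and NECTIN2, had 16, 1 and 6 counts with ApoD overexpression and 13, 5 and 15 in controls and did not pass (edgeR adjusted p = 0.684).

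**Figure D4:**
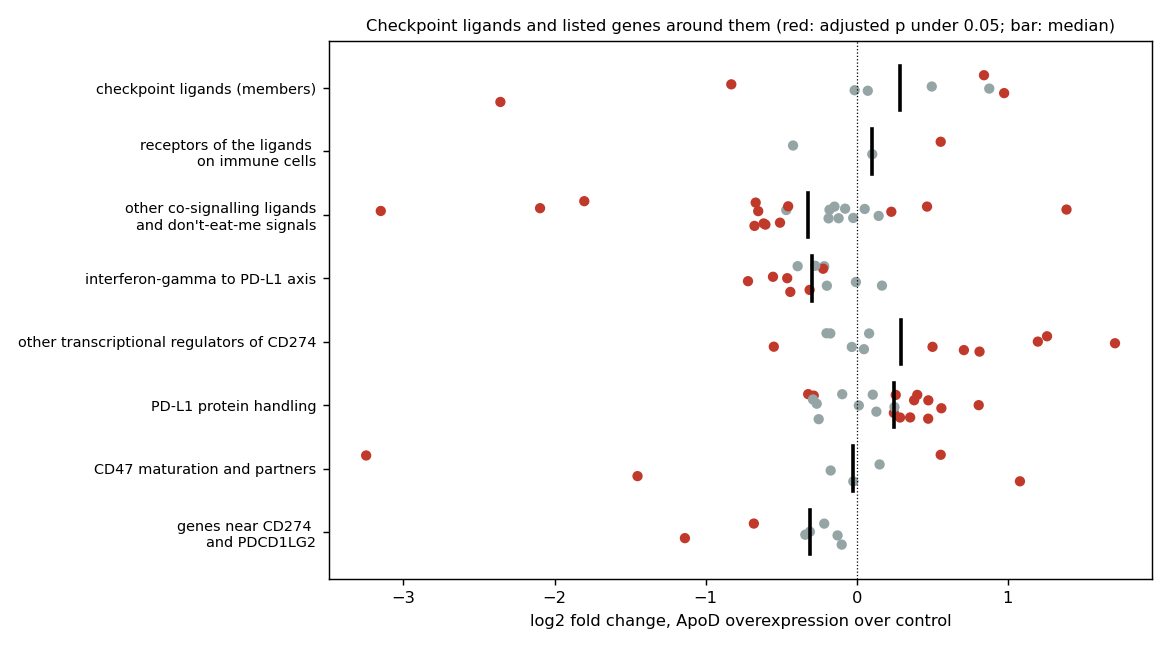
Log2 fold change of ApoD overexpression over control (horizontal axis) of the tested checkpoint ligands and of the tested genes in 7 lists around them, 1 point a gene and a bar for each list's median; red points have an adjusted p under 0.05. The interferon-gamma list lies at or left of 0 except for PTPN2, and the list of other CD274 regulators has 6 red points right of 0 and 1 left.

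Genes of the interferon-gamma route to CD274 fell or did not pass. Of 12 tested members 6 fell and 0 rose, where 24.6% of all tested genes were lower, and the median was −0.29. IRF9, a subunit of the interferon-activated factor ISGF3, fell to 11.8 ± 0.692 CPM with ApoD overexpression, against 19.4 ± 2.65 CPM in controls (log2 fold change −0.72 ± 0.13 SE; adjusted p = 0.000880 by edgeR). The feedback inhibitor SOCS3, the receptor chain IFNGR1 and the kinase JAK1 fell by 0.55 ± 0.13, 0.46 ± 0.10 and 0.44 ± 0.10 (SE). IRF1, a direct activator of CD274, is added for its role and had 119 ± 7.45 CPM with ApoD overexpression and 119 ± 8.13 CPM in controls (edgeR adjusted p = 0.968).

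Among other transcriptional regulators linked to CD274, 6 of 12 tested members rose and 1 fell, with a median of 0.29, where 24.2% of all tested genes were higher. Under library totals, and likewise without the abundance trend, 6 were called higher and 3 lower. Of all 14629 tested genes, 2580 were higher and 4435 lower under library totals, and 3238 and 3379 without the trend. The AP-1 subunits FOSL1 and JUN rose by 1.71 ± 0.13 and 1.26 ± 0.12, the repressor of E-cadherin ZEB1 by 1.20 ± 0.30, and NFKB1, a subunit of NF-kB, by 0.81 ± 0.14 (SE). JUN had 27.0 ± 1.88 CPM with ApoD overexpression and 11.3 ± 1.07 CPM in controls (SD, n = 3). The member that fell was HIF1A, the oxygen-regulated factor, with a change of −0.55 ± 0.14.

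Genes that process or degrade PD-L1 protein rose in 10 of 20 tested members and fell in 2, with a median of 0.25, where 24.2% of all tested genes were higher and 24.6% lower. This split differed with the scaling: 6 rose and 5 fell with library totals, and 5 moved each way without the abundance trend. The counts over all tested genes under both settings are given above. SPOP, an adaptor of the ubiquitin ligase that marks PD-L1 for degradation, rose by 0.56 ± 0.11 (SE). COPS5, which removes ubiquitin from PD-L1, and the glycosylation enzyme STT3A rose by 0.47 ± 0.09 and 0.47 ± 0.09. The members that fell were CMTM6 and CMTM4, which protect PD-L1 at the cell surface, with changes of −0.32 ± 0.11 and −0.28 ± 0.09. CMTM6 had 126 ± 10.9 CPM with ApoD overexpression and 158 ± 20.2 CPM in controls (SD, n = 3; edgeR adjusted p = 0.0288).

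Among partners of CD47, 2 of 7 tested members rose and 2 fell, close to the shares of all tested genes, 24.2% higher and 24.6% lower. THBS1, a secreted thrombospondin that binds CD47, rose to 223 ± 44.6 CPM with ApoD overexpression, against 106 ± 8.36 CPM in controls (log2 fold change 1.08 ± 0.13 SE; adjusted p = 5.95e-05 by edgeR), and SIRPA is given above. LRP1, the phagocyte receptor of calreticulin, fell to 123 ± 13.9 CPM with ApoD overexpression, against 337 ± 53.2 CPM in controls (log2 fold change −1.45 ± 0.12 SE). ITGB3, an integrin chain associated with CD47, had 4, 8 and 4 counts with ApoD overexpression, against 18, 47 and 105 in controls, and fell by 3.25 ± 0.69. It passed the low-count filter only through the controls. QPCTL, the enzyme that finishes the SIRPA-binding end of CD47, had 24.7 ± 1.53 CPM with ApoD overexpression and 25.1 ± 0.143 CPM in controls and did not pass.

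The neighbours of CD274 and PDCD1LG2 on the short arm of chromosome 9 include JAK2. Of 7 tested neighbours 0 rose and 2 fell, with a median of −0.31, where 24.6% of all tested genes were lower, a share close to 2 of 7. With library totals 4 fell, and without the abundance trend 3, where 4435 and 3379 of all 14629 tested genes were lower. The protease ERMP1 fell to 48.8 ± 4.54 CPM with ApoD overexpression, against 107 ± 8.79 CPM in controls (log2 fold change −1.14 ± 0.10 SE; adjusted p = 7.63e-06 by edgeR), and the plasminogen receptor PLGRKT fell by 0.68 ± 0.17. JAK2 had 294, 145 and 294 counts with ApoD overexpression, against 282, 325 and 307 in controls, and did not pass.

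Among 22 other tested co-signalling ligands and signals against phagocytosis, 10 fell, 3 rose and 9 did not pass, with a median of −0.32, where 24.6% of all tested genes were lower and 24.2% higher. FGL1, a secreted ligand of LAG-3, had 2, 7 and 4 counts with ApoD overexpression, against 52, 37 and 40 in controls (log2 fold change −3.15 ± 0.56 SE; adjusted p = 0.000692 by edgeR). CD86, a ligand of CD28 and CTLA-4, had 15, 6 and 3 counts with ApoD overexpression, against 28, 35 and 49 in controls, and fell by 2.10 ± 0.58. CD40, a receptor of the TNF family, fell by 1.80 ± 0.49. FGL1, CD86 and CD40 passed the low-count filter because of their control counts. Their place among the 10 falls thus follows in part from that filter. The adhesion protein CEACAM1, a proposed partner of TIM-3, rose to 13.5 ± 1.72 CPM with ApoD overexpression, against 5.17 ± 0.577 CPM in controls (log2 fold change 1.39 ± 0.16 SE; adjusted p = 3.44e-05 by edgeR).

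Separation of the libraries gave a similar picture for the members. The ranges of both groups did not overlap for 5 of the 8, the 4 called ligands and NECTIN2, where 58.7% of all tested genes did not overlap. Of the 8 members 3 were higher without overlap, where 29.0% of all tested genes were, and 2 were lower without overlap, where 29.7% were. NECTIN2 was separated only at the edge in CPM, and its mean FPKM had the opposite order, 14.3 ± 0.665 with ApoD overexpression and 14.7 ± 0.628 in controls.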

How the data were processed

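The data are 6 RNA-seq libraries of the 83 cell line, prepared from Qiagen RNeasy extracts with the SMARTER kit for mRNA, per the labels' protocols. The sources used here name no aligner, counting program, strand setting or genome build, so genes carry no coordinates; promoters are RefSeq's, in GRCh38.p14. The authors deposited whole-number read counts for 21676 gene symbols, per the file headers. The authors also deposited FPKM values for the same genes; all 108650 values above 0 equal the count over the library total and 1 whole-number length per gene (relative tolerance 1e-06). Columns without a sample numbered 0.

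edgeR 4.0.16 in R 4.3.3 gave the main test, its quasi-likelihood F test, two-sided, with TMM scaling, filterByExpr at a minimum count of 10, and Benjamini-Hochberg adjustment over 14629 genes at 0.05. Log2 fold changes are ApoD overexpression over control, with SE from the F statistic. Means are ± SD over 3 libraries. CPM is scaled to TMM libraries of 1000000. FPKM was tested with limma 3.58.1 on log2(FPKM + 1) or log2(FPKM + 0.1), and counts also with DESeq2 1.42.0. The fits were also run on simulated counts with few changed genes, about as many raised as lowered, and no abundance trend. Such data cannot test how the scalings act on the libraries described here.

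The members and lists were chosen with earlier results of these data known. The text names APOD, every member and, from each list, up to 4 members past the threshold by size of change; some genes are not reported here. Other genes, among them IRF1, HIF1A, CMTM6, CMTM4, QPCTL, JAK2, TNFSF14 and CD226, and the receptors and markers given by counts, were added after their values were seen.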

Additional observations from a re-analysis of the deposited data

How the results depend on the processing

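CD276, PVR and LGALS9 kept their direction and stayed past the threshold in every alternative fit: DESeq2 size factors, library totals, the abundance trend removed, the DESeq2 Wald test, a test against a 1.5-fold change, no low-count filter, the replicate block, log2(FPKM + 1) with and without a filter, log2(FPKM + 0.1), and each library left out. TNFRSF14 was no longer past it with the trend removed (−0.50) or against a 1.5-fold change (−0.83, adjusted p = 0.200), while CD274 (0.92) and PDCD1LG2 (1.46) passed with the trend removed; the cause was not tested. With 1 library left out PDCD1LG2 ran from 0.58 to 1.17 and CD47 from −0.11 to 0.090, crossing 0. NECTIN2 was −0.044 with library totals and with limma on log2(FPKM + 0.1), −0.041 on log2(FPKM + 1) with and without the filter, and −0.030 with the trend removed, and CD47 was 0.0081 without the low-count filter, none of them past the threshold. The mean log2 ratio of PDCD1LG2 to CD274 differed between groups by −0.060 to 0.63 with 1 library left out. The filtered FPKM fits gave no value for CD274 and PDCD1LG2, which failed their filter, and LGALS9 met it only through the controls. With the trend removed 4 of the 8 tested members were higher and 1 lower, where 3238 and 3379 of all 14629 tested genes were. Against a 1.5-fold change 2 were higher and 1 lower, where 545 and 1430 of all tested genes were.

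Over all genes 3539 were higher and 3601 lower. Against a 1.5-fold change 545 and 1430 passed, and with the trend removed 3238 were higher and 3379 lower. Unfiltered log2(FPKM + 1) gave 2317 higher. Library totals moved the median of all genes from −0.02 to −0.13 and the calls to 2580 higher and 4435 lower; relative to that median CD276 had 0.86, PVR 0.99, LGALS9 −2.34 and TNFRSF14 −0.81. The lists hold 81 tested genes other than the members. Of these 21 were higher and 23 lower, where 24.2% of all tested genes were higher and 24.6% lower. With library totals 16 of them were higher and 34 lower, and with the trend removed 15 and 33. In the test against a 1.5-fold change 5 of them were higher and 5 lower. The labels give no pairing of libraries. Deviations of same-numbered libraries from their group means correlated at −0.12, −0.01 and −0.04, and 0.078 was the highest correlation of any other pair. These values show no likeness by replicate number, but cannot tell whether libraries were prepared in pairs. With the replicate block 3088 genes were higher and 3260 lower, and no call of a member changed. Low counts limit CD274, PDCD1LG2, LGALS9 and TNFRSF14, which had 22 to 294 counts per library.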

Other observations

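Several ligands outside the list of 10 differed between groups; they were picked out after their values were seen. Of the nectins, NECTIN1 was more abundant than NECTIN3 and NECTIN4, counted in reads, with 315 ± 12.3 CPM with ApoD overexpression and 357 ± 32.8 CPM in controls (SD, n = 3; edgeR adjusted p = 0.127). NECTIN4 fell to 16.3 ± 3.36 CPM with ApoD overexpression, against 23.3 ± 3.78 CPM in controls (edgeR adjusted p = 0.0203). VSIR, which encodes VISTA, fell to 18.9 ± 0.962 CPM with ApoD overexpression, against 30.2 ± 0.826 CPM in controls (log2 fold change −0.68 ± 0.10 SE; adjusted p = 0.000234 by edgeR). CD24, a ligand of the phagocyte receptor Siglec-10, fell to 107 ± 4.86 CPM with ApoD overexpression, against 146 ± 2.63 CPM in controls. LGALS3, the gene of galectin-3, fell like LGALS9 but by less, with a log2 fold change of −0.65 ± 0.10, while LGALS1 did not pass at −0.19 ± 0.12. The butyrophilin BTN2A1 rose by 0.47 ± 0.09 and BTN2A2 fell by 0.62 ± 0.14. The co-stimulatory ligand CD70 fell by 0.67 ± 0.10 and TNFSF9 rose by 0.23 ± 0.09 (edgeR adjusted p = 0.0416).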
